A study of Mus musculus with 4 samples.

Results

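Genes of fatty acid uptake and beta-oxidation were followed in skeletal muscle of mice at 10 weeks of age. The members are 36 genes, found as the 55 probes whose gene name on the array is one of them or an older alias (Eci1 as Dci, Eci2 as Peci, Hadh as Hadhsc), out of 27586 genes and named transcripts on 41174 probes. The list runs from the cell surface to the respiratory chain: 4 genes of uptake and binding, 5 acyl-CoA synthetases, 6 genes of the carnitine shuttle and its control, 9 of the mitochondrial spiral, 4 auxiliary enzymes for unsaturated chains, 3 of electron transfer, 3 of the peroxisomal spiral and 2 uncoupling proteins. Total RNA of 4 genotypes was hybridised to 1-colour Agilent arrays, with 1 array each: ob/ob TBP-2-/-, ob/ob, TBP-2-/- and WT. TBP-2 is the thioredoxin-interacting protein Txnip, while ob/ob animals make no working leptin and grow obese. All animals fed freely. The labels do not give the strain, the sex, the muscle, the part of Txnip that is deleted, or whether an RNA came from 1 animal or several. For the ob/ob sample the title and the genotype label are spelled differently, and the title was used.

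Long-chain fatty acids enter a muscle fibre with the help of Cd36 and the Slc27a transporters, are carried by Fabp3 in the cytosol, and are joined to coenzyme A by the Acsl enzymes. The carnitine shuttle (Cpt1, Slc25a20, Cpt2) moves the acyl chain into the mitochondrion, where each turn of the spiral removes an acetyl-CoA through a dehydrogenase, a hydratase, a second dehydrogenase and a thiolase. Electrons of the first dehydrogenase pass through the flavoprotein Etfa/Etfb and Etfdh to ubiquinone. Peroxisomes run a similar spiral on very long, branched and dicarboxylic chains. Many of these genes are known targets of the peroxisome proliferator-activated receptors, which bind direct repeats with 1 base between the half-sites.

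Values below are relative signals, the processed signal of a probe divided by the 75th percentile of its array, for the brightest probe of each gene. All 36 members were well above background on all 4 arrays, and no spot was saturated. A log2 difference is given with the standard error (SE) of the scanner software's error model, which covers the spots of an array and not the spread between mice. With 1 array for each genotype no pairwise difference has a replicate check or a p-value, and "higher" and "lower" describe these arrays. The arrays had between 22667 and 24212 probes well above background. Txnip had a relative signal of 0.634 in ob/ob TBP-2-/- and 42.8 in ob/ob muscle, and of 2.85 in TBP-2-/- and 47.5 in WT muscle. The 5 skeletal muscle markers (Ckm, Acta1, Tnnt3, Mylpf, Des) were well above background on every array, with a summed relative signal between 4718 and 5624. The brown fat genes Ucp1 and Elovl3 and the liver gene Apoa1 were not well above background on any array, while the liver gene Alb was on 1 and the atrial gene Nppa on 3. Other genes of these lists, Cidea of brown fat and Myh6 of heart, were well above background on all 4 arrays. Cidea had a relative signal of 1.26 in ob/ob TBP-2-/-, 1.10 in ob/ob, 3.48 in TBP-2-/- and 2.08 in WT muscle. Myh6 had 19.3 in ob/ob TBP-2-/-, 32.7 in ob/ob, 59.4 in TBP-2-/- and 59.5 in WT muscle. The WT array stood apart in tendon genes: the 4 markers Tnmd, Comp, Fmod and Kera had a summed relative signal of 41.4 in ob/ob TBP-2-/-, 28.0 in ob/ob, 22.8 in TBP-2-/- and 1.01 in WT muscle, and the part of tendon in any comparison with WT was not tested.

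Most members were lowest in ob/ob TBP-2-/- muscle, the double mutant. That genotype held the lowest value for 27 of 36 members, against 25.3% of the 14920 genes measured on all arrays. The TBP-2-/- array held the highest value for 22 members, against 15.2% of those genes. Of the other members, Acsl3, Acsl5, Cpt1a, Acaa1a, Ucp2 and Ucp3 were lowest in ob/ob, Acsl4 and Acsl6 in TBP-2-/- and Cd36 in WT muscle. These counts and ranks are for percentile scaling and the brightest probe. Scaling to the spike-in probes alters some of them. With it the ob/ob TBP-2-/- minus ob/ob difference turned from 0.33 to -0.18 for Acsl3 and from 0.02 to -0.48 for Acaa1a. The highest array changes for some members too, since that scaling adds 0.64 to ob/ob minus WT and 0.25 to TBP-2-/- minus WT. Acaa2, highest in TBP-2-/- with percentile scaling, was then highest in ob/ob, at 0.43 against WT, with TBP-2-/- at 0.39. Among the members lowest in the double mutant, Echs1 and Ehhadh were also low in TBP-2-/- in comparison with WT muscle.

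**Figure D1:**
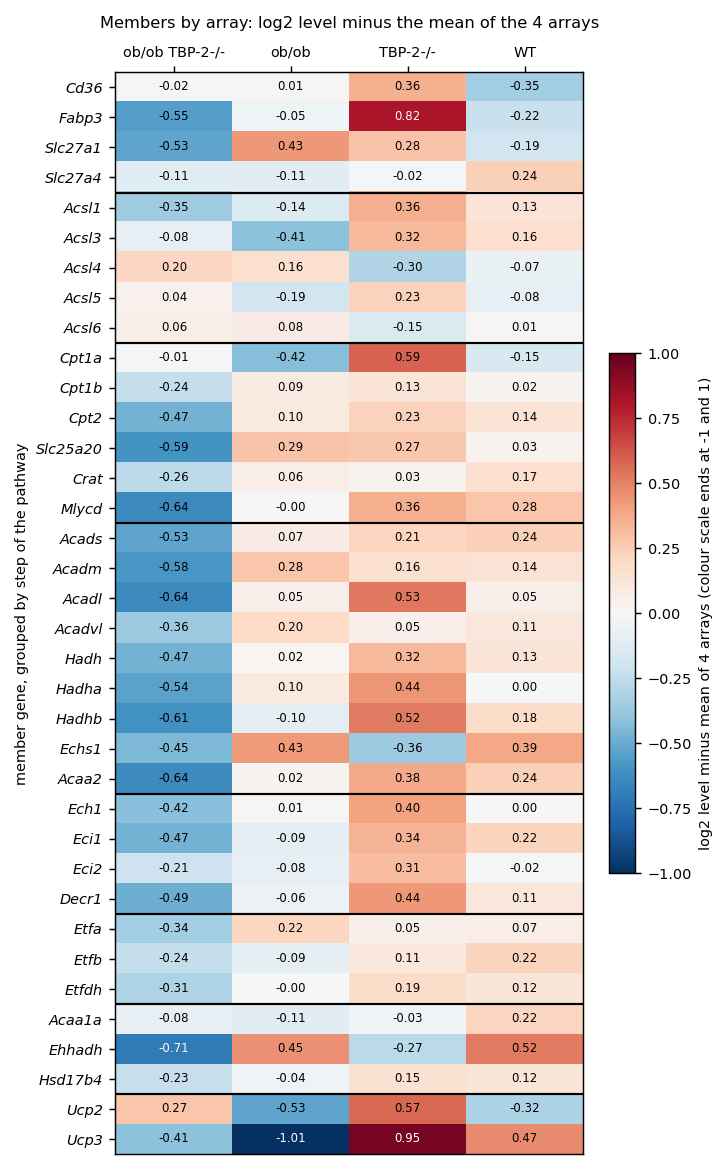
Log2 level of each of the 36 members (rows, grouped by step from uptake at the top to uncoupling proteins at the bottom) on the 4 arrays (columns), minus its mean over the 4 arrays. Blue cells are below and red cells above the mean. With percentile scaling, used here, the ob/ob TBP-2-/- column is the lowest for 27 members and the TBP-2-/- column the highest for 22.

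Loss of Txnip went with a lower median of the members on the ob/ob background and with a slightly higher one on the lean background. Between ob/ob TBP-2-/- and ob/ob muscle the members had a median log2 difference of -0.41, with all genes at 0.03 and the 7 slow fibre markers at -0.52, whose part was not tested. In that comparison 10 of 36 members were 1.5-fold or more lower, where 3.64% of all measured genes were, and 2 were 1.5-fold or more higher, where 6.5% of all genes were. In TBP-2-/- against WT muscle the median was 0.13, with all genes at -0.08. Here 4 members, Cd36, Fabp3, Cpt1a and Ucp2, were 1.5-fold or more higher (5.93% of all genes) and 2, Echs1 and Ehhadh, were lower (3.29%). The 20 members of mitochondrial import and oxidation had a median of 0.10 there. At 2-fold only Fabp3 was higher there (1.74% of all genes) and none was lower (0.881%), and on the ob/ob background only Ehhadh was lower (0.821%) and none higher (1.86%). These comparisons share no array. A lower value on the ob/ob background together with a higher one on the lean background was seen for 20 of 36 members and for 2237 of the 14920 genes measured on all arrays. The difference between the TBP-2 differences on the ob/ob and the lean background had a median of -0.48 over the members and 0.08 over all genes, and 14 members were 1.5-fold or more lower by it (6.51% of all genes), with none 1.5-fold higher (7.98%). It uses all 4 arrays and leaves no degree of freedom for a test.

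**Figure D2:**
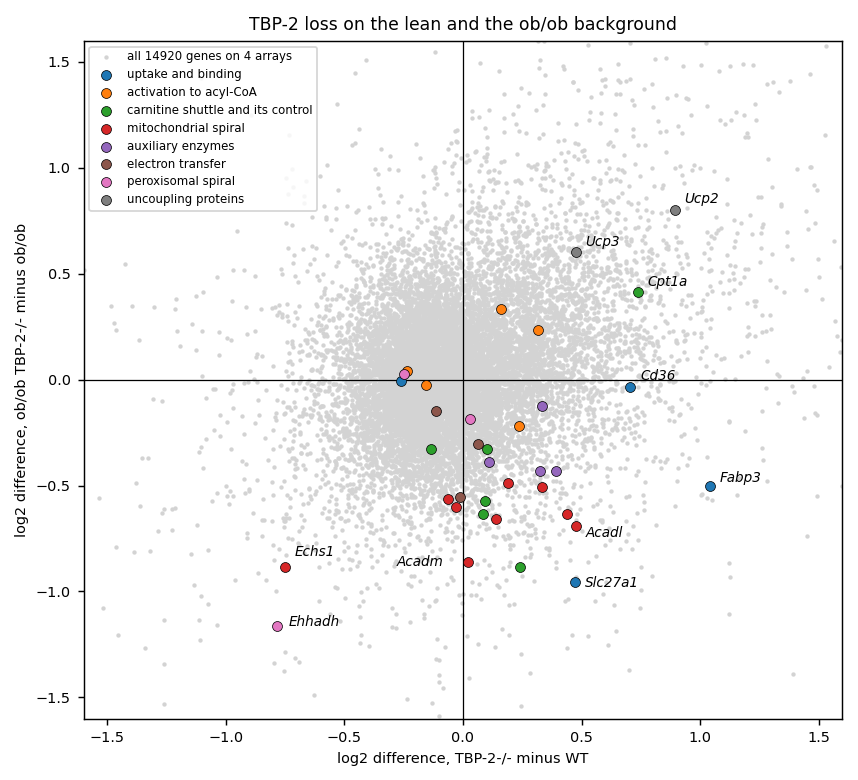
Log2 difference with loss of Txnip on the ob/ob background (vertical axis) against that on the lean background (horizontal axis), with the members coloured by step and all 14920 genes measured on 4 arrays in grey. The field at the lower right holds 20 members, while Echs1 and Ehhadh lie at the lower left and Ucp2, Ucp3 and Cpt1a at the upper right.

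With the ob/ob genotype the members were lower where Txnip was missing. In ob/ob TBP-2-/- against TBP-2-/- muscle the median was -0.56 (all genes 0.04), 18 of 36 members were 1.5-fold or more lower (5.02% of all genes) and none was 1.5-fold higher (6.22%). Of the 18 members, 6 were 2-fold or more lower (1.59% of all genes, with 1.75% higher): Fabp3, Mlycd, Acadl, Hadhb, Acaa2 and Ucp3. The 7 slow fibre markers had a median of -1.36 in the same comparison, and the part of fibre type was not tested. In ob/ob against WT muscle the median was -0.10 (all genes -0.05), and it turned to 0.08 with quantile normalization and to 0.54 with scaling to the spike-in probes. There 1 member, Slc27a1, was 1.5-fold or more higher (6.22% of all genes) and 1, Ucp3, lower (6.83%). Scaling to the spike-in probes shifts every gene by the same amount in a comparison: -0.51 in ob/ob TBP-2-/- minus ob/ob, 0.25 in TBP-2-/- minus WT, -0.11 in ob/ob TBP-2-/- minus TBP-2-/-, 0.64 in ob/ob minus WT and -0.76 in the difference of the TBP-2 differences. Differences smaller than this shift and of opposite sign to it change direction with that scaling.

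**Figure D3:**
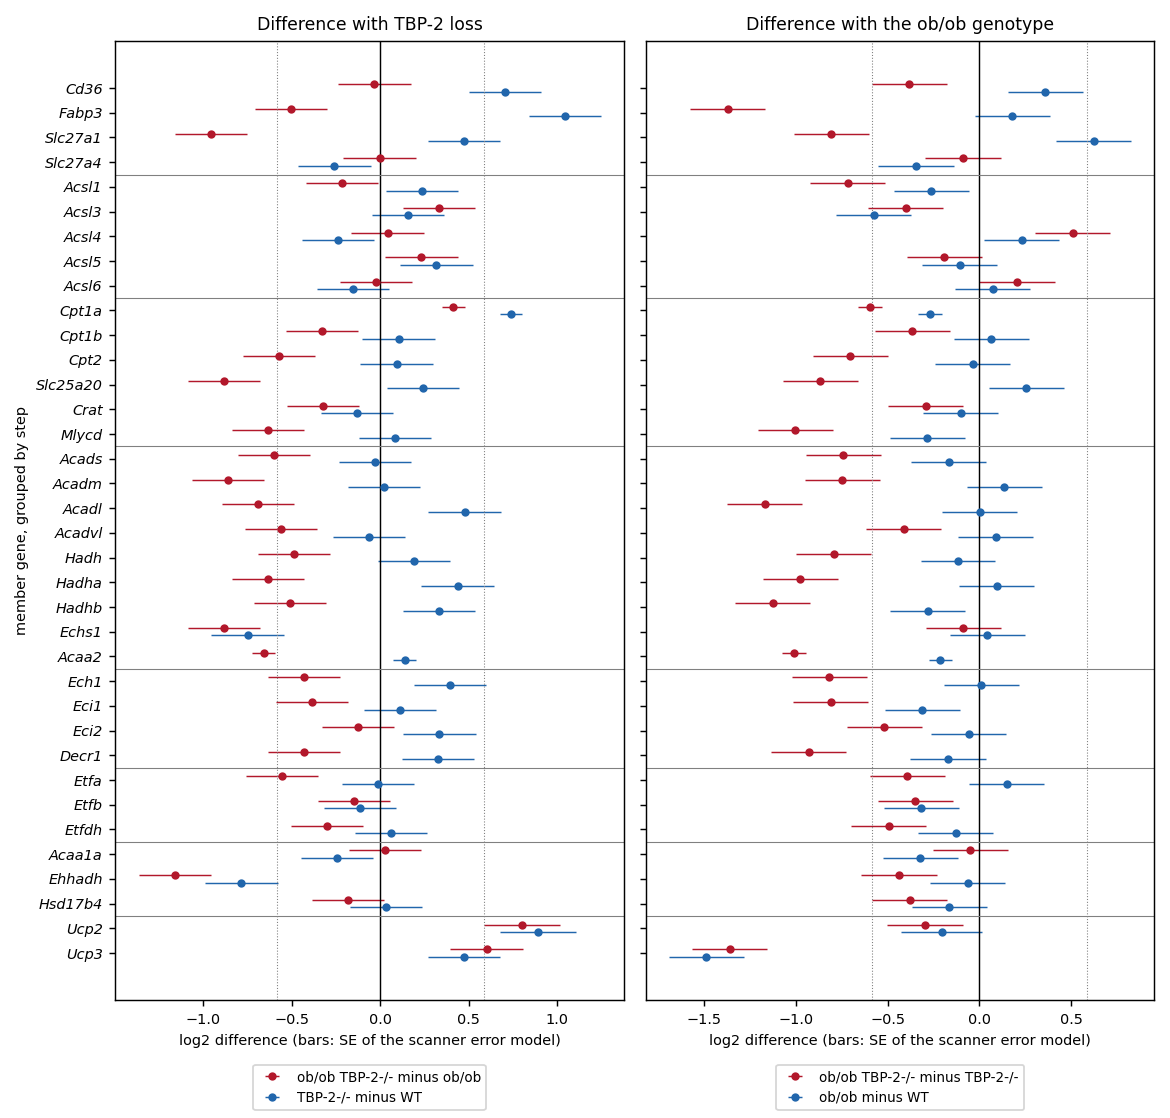
Log2 differences of the 36 members with loss of Txnip (left panel: red, ob/ob TBP-2-/- minus ob/ob; blue, TBP-2-/- minus WT) and with the ob/ob genotype (right panel: red, ob/ob TBP-2-/- minus TBP-2-/-; blue, ob/ob minus WT). Bars are the SE of the scanner error model and dotted lines mark 1.5-fold. Red points lie left of blue points for most members of the carnitine shuttle and the mitochondrial spiral.

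Among the genes of uptake and binding, Fabp3 and Slc27a1 stood out. Fabp3, the fatty acid-binding protein of heart and muscle (probe on chromosome 4, 129817668 to 129817727, mm8), had a relative signal of 213 in ob/ob TBP-2-/-, 302 in ob/ob, 549 in TBP-2-/- and 267 in WT muscle. The TBP-2-/- array was thus the high one. Its level was 2.06-fold higher in TBP-2-/- than in WT (log2 difference 1.04 ± 0.20) and 1.42-fold lower in ob/ob TBP-2-/- than in ob/ob muscle (-0.50 ± 0.20). Slc27a1, a fatty acid transporter that also has acyl-CoA synthetase activity (chromosome 8, 74515346 to 74515405, mm8), had 4.24 in ob/ob TBP-2-/-, 8.23 in ob/ob, 7.42 in TBP-2-/- and 5.35 in WT muscle. The double mutant array was the lowest, 1.94-fold below ob/ob (-0.96 ± 0.20) and 1.75-fold below TBP-2-/- (-0.81 ± 0.20). Its other probe gave -0.84 and -1.11 in the same comparisons. In ob/ob against WT muscle the probe used was at 0.62 and the other at 0.17, so the 1.5-fold call rests on 1 probe.

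Cd36, the scavenger receptor that takes up long-chain fatty acids, had 12.2 in ob/ob TBP-2-/-, 12.5 in ob/ob, 15.9 in TBP-2-/- and 9.76 in WT muscle. It differed by -0.03 ± 0.20 with Txnip loss on the ob/ob background and by 0.71 ± 0.20 on the lean one, where it was 1.63-fold higher. Cd36 is also made by adipocytes, endothelium and macrophages. Of their markers, the 7 of adipocytes had a summed relative signal of 257 in ob/ob TBP-2-/- and 139.5 in ob/ob, and of 326 in TBP-2-/- and 215 in WT muscle. The 4 of endothelium had 8.46 in ob/ob TBP-2-/- and 9.42 in ob/ob, and 9.87 in TBP-2-/- and 9.69 in WT muscle. The 4 of macrophages (Cd68, Adgre1, Csf1r, Cd14) had 4.80 in ob/ob TBP-2-/- and 3.75 in ob/ob, and 5.97 in TBP-2-/- and 3.76 in WT muscle. All of these markers were well above background on every array. The part of other cells in the Cd36 signal was not tested, and in whole muscle fewer cells of a type cannot be told from less RNA in each. Slc27a4, another transporter of the family and the dimmest of the 4, had 0.501 in ob/ob TBP-2-/-, 0.502 in ob/ob, 0.533 in TBP-2-/- and 0.638 in WT muscle, within 1.27-fold in every comparison.

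The acyl-CoA synthetases varied little. None of the 5 was 1.5-fold different with loss of Txnip on either background or in ob/ob minus WT. In each direction of those comparisons between 3.29% and 6.83% of all genes were, so this is unremarkable for so few genes. The single such difference by the brightest probe was that of Acsl1 in ob/ob TBP-2-/- against TBP-2-/- muscle (5.02% of all genes were lower). Acsl1, the main synthetase of oxidative tissue, had 58.5 in ob/ob TBP-2-/-, 68.1 in ob/ob, 96.2 in TBP-2-/- and 81.7 in WT muscle. It was 1.64-fold lower in ob/ob TBP-2-/- than in TBP-2-/- muscle (-0.72 ± 0.20), and its 3 probes had the same sign in that comparison. Acsl4, which prefers arachidonic acid, went the other way, with 11.8 in ob/ob TBP-2-/-, 11.4 in ob/ob, 8.28 in TBP-2-/- and 9.77 in WT muscle. It was the highest difference of any member between ob/ob TBP-2-/- and TBP-2-/- muscle (0.51 ± 0.20, 1.42-fold higher). Acsl3 was 1.49-fold lower in ob/ob than in WT muscle (-0.58 ± 0.20), a sign that spike-in scaling turns. Acsl5 had 0.778 in ob/ob TBP-2-/-, 0.662 in ob/ob, 0.889 in TBP-2-/- and 0.713 in WT muscle, within 1.25-fold in every comparison. Acsl6 ranged between 1.67 and 1.95 by the probe used, while a dimmer probe gave a difference of 0.97 in ob/ob minus WT, against 0.07 for the probe used.

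The carnitine shuttle was lower in the double mutant at each of its mitochondrial steps, whereas its outer gate differed between isoforms. Slc25a20, the carnitine-acylcarnitine translocase of the inner membrane, had 3.48 in ob/ob TBP-2-/-, 6.42 in ob/ob, 6.35 in TBP-2-/- and 5.37 in WT muscle. The other arrays thus lay close together, and the double mutant was 1.85-fold below ob/ob (-0.88 ± 0.20) and 1.82-fold below TBP-2-/- (-0.87 ± 0.20). Cpt2, the inner carnitine palmitoyltransferase, was at 28.5 in ob/ob TBP-2-/- and between 42.4 and 46.4 on the other arrays. Mlycd, the decarboxylase that removes the Cpt1 inhibitor malonyl-CoA, had 37.9 in ob/ob TBP-2-/-, 58.8 in ob/ob, 75.9 in TBP-2-/- and 71.6 in WT muscle. Its difference was -0.63 ± 0.20 against ob/ob and -1.0 ± 0.20 against TBP-2-/- muscle.

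Cpt1b is the muscle form of the outer palmitoyltransferase and Cpt1a the form of liver and many other tissues. Cpt1b was at 48.6 in ob/ob TBP-2-/- and between 58.3 and 62.6 on the other arrays, and a second probe gave larger differences of the same sign (-0.65 against ob/ob, where the probe used gave -0.33). Cpt1a, printed as 10 spots on each array, had 0.919 in ob/ob TBP-2-/-, 0.69 in ob/ob, 1.39 in TBP-2-/- and 0.832 in WT muscle. It was higher without Txnip on both backgrounds, by 0.41 ± 0.06 on the ob/ob (1.33-fold) and by 0.74 ± 0.06 on the lean background (1.67-fold); with spike-in scaling the first turned to -0.10. Crat, carnitine acetyltransferase, which buffers acetyl-CoA, ranged between 42.3 and 56.9, lowest in ob/ob TBP-2-/- and highest in WT muscle.

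The mitochondrial spiral was the step with the lowest median on the ob/ob background after loss of Txnip. Its 9 genes had a median of -0.63 in ob/ob TBP-2-/- minus ob/ob, with a range of -0.88 to -0.49, and of 0.14 in TBP-2-/- minus WT, with a range of -0.75 to 0.48. The first enzymes of the spiral are the acyl-CoA dehydrogenases, which divide the chains by length. Acadl, for long chains, had 11.7 in ob/ob TBP-2-/-, 18.9 in ob/ob, 26.3 in TBP-2-/- and 18.9 in WT muscle. The ob/ob and WT arrays were alike, and the arrays without Txnip lay on opposite sides of them: 1.62-fold lower in ob/ob TBP-2-/- than in ob/ob (-0.69 ± 0.20) and 1.39-fold higher in TBP-2-/- than in WT (0.48 ± 0.20). Acadm, for medium chains, had 82.1 in ob/ob TBP-2-/-, 149 in ob/ob, 138 in TBP-2-/- and 136 in WT muscle, so that the double mutant array alone was low, 1.81-fold below ob/ob (-0.86 ± 0.20). Acadvl, for very long chains, had 142 in ob/ob TBP-2-/-, 209 in ob/ob, 189 in TBP-2-/- and 197 in WT muscle. Acads, for short chains, had 3.26 in ob/ob TBP-2-/-, 4.94 in ob/ob, 5.44 in TBP-2-/- and 5.55 in WT muscle. For both the 3 other arrays lay close together above the double mutant, which was 1.48-fold below ob/ob for Acadvl (-0.56 ± 0.20) and 1.52-fold below for Acads (-0.60 ± 0.20).

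Hadha and Hadhb, the alpha and beta subunits of the trifunctional protein that carries long chains through the later reactions, had similar profiles. Hadha had 4.28 in ob/ob TBP-2-/-, 6.63 in ob/ob, 8.41 in TBP-2-/- and 6.21 in WT muscle. Hadhb had 44.9 in ob/ob TBP-2-/-, 63.8 in ob/ob, 97.8 in TBP-2-/- and 77.6 in WT muscle. With percentile scaling both were lowest in ob/ob TBP-2-/- and highest in TBP-2-/- muscle, a gap of -0.98 ± 0.20 for Hadha and -1.12 ± 0.20 for Hadhb. A dim Hadha probe, with a relative signal of at most 0.062, did not show this, with -0.07 in that comparison. The genes lie head to head on chromosome 5 (GRCm38.p6), with Hadha starting at 30154980 on the minus strand and Hadhb at 30155253 on the plus strand, and 272 bases between their start sites. The stretch before the Hadhb start, chr5:30155003-30155252 on the plus strand, is shown because it serves as upstream sequence to both genes. It held neither of the receptor motifs searched for, so no base is in capitals.
Hadhb: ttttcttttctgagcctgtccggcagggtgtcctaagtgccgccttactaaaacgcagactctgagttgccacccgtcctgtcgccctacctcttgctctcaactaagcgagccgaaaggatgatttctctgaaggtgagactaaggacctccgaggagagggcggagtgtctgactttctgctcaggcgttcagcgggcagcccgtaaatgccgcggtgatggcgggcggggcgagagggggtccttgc

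Of the other enzymes, Hadh, the 3-hydroxyacyl-CoA dehydrogenase for shorter chains, was at 18.3 in ob/ob TBP-2-/- and between 25.7 and 31.7 on the other arrays. Acaa2, the mitochondrial thiolase that closes the turn, printed as 10 spots, had 59.9 in ob/ob TBP-2-/-, 94.7 in ob/ob, 121 in TBP-2-/- and 109.7 in WT muscle. It was 1.58-fold below ob/ob (-0.66 ± 0.06) and 2.02-fold below TBP-2-/- muscle (-1.01 ± 0.06).

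The auxiliary enzymes, which move or reduce double bonds so that unsaturated chains can enter the spiral, shared their lowest and highest arrays. With percentile scaling Ech1, Eci1, Eci2 and Decr1 were all lowest in ob/ob TBP-2-/- and highest in TBP-2-/- muscle. Decr1, the dienoyl-CoA reductase, had 1.24 in ob/ob TBP-2-/-, 1.67 in ob/ob, 2.36 in TBP-2-/- and 1.88 in WT muscle, and was 1.90-fold lower in ob/ob TBP-2-/- than in TBP-2-/- (-0.93 ± 0.20). Eci2, an enoyl-CoA isomerase, had 71.6 in ob/ob TBP-2-/-, 78.1 in ob/ob, 103 in TBP-2-/- and 81.3 in WT muscle, with the TBP-2-/- array apart from the others. Over the 4 genes the differences between those arrays ran between -0.93 and -0.52. Ech1 and Eci2, which occur in mitochondria and in peroxisomes, were at -0.82 and -0.52.

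The electron transfer genes showed the smallest gap of the mitochondrial steps. Etfa, Etfb and Etfdh were lowest in ob/ob TBP-2-/- muscle too, but differed from TBP-2-/- by -0.49 to -0.35, and none reached 1.5-fold in any comparison by the brightest probe. A dimmer Etfdh probe was at -0.78 in ob/ob TBP-2-/- minus ob/ob, where the brightest gave -0.30. Etfa had 30.6 in ob/ob TBP-2-/-, 44.9 in ob/ob, 40.2 in TBP-2-/- and 40.5 in WT muscle. Etfb had 166 in ob/ob TBP-2-/-, 183 in ob/ob, 211 in TBP-2-/- and 228 in WT muscle, so the lean arrays were its high ones.

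Echs1 and Ehhadh were lower without Txnip on both backgrounds and differed less between the ob/ob and lean arrays of like Txnip genotype, except with spike-in scaling, which puts them at 0.69 and 0.58 in ob/ob minus WT. Echs1 is the mitochondrial short-chain enoyl-CoA hydratase, which also acts in valine breakdown, and Ehhadh is the peroxisomal bifunctional enzyme that has enoyl-CoA hydratase activity. Echs1 (probe on chromosome 7, 139957193 to 139957252, mm8) had 21.2 in ob/ob TBP-2-/- and 39.2 in ob/ob, and 22.6 in TBP-2-/- and 38.0 in WT muscle. It was 1.84-fold lower on the ob/ob (-0.88 ± 0.20) and 1.68-fold lower on the lean background (-0.75 ± 0.20). Ehhadh (chromosome 16, 21675824 to 21675883, mm8) had 0.395 in ob/ob TBP-2-/- and 0.883 in ob/ob, and 0.536 in TBP-2-/- and 0.924 in WT muscle. It was 2.24-fold lower on the ob/ob (-1.16 ± 0.21), and 1.72-fold lower on the lean background (-0.79 ± 0.21). Both kept this sign under each scaling tried.

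The other peroxisomal members moved less. Hsd17b4, the other bifunctional enzyme of the peroxisome, was at 18.5 in ob/ob TBP-2-/- and between 21.1 and 24.1 on the other arrays. Acaa1a, the peroxisomal thiolase, had 45.2 in ob/ob TBP-2-/-, 44.4 in ob/ob, 46.8 in TBP-2-/- and 55.6 in WT muscle. Its dimmer probes had the double mutant lowest, at 3.17 against 3.71 in ob/ob and at 4.64 against 5.02. They gave -0.42 and -0.29 in ob/ob TBP-2-/- minus TBP-2-/- muscle, where the probe used gave -0.05. In ob/ob TBP-2-/- minus TBP-2-/- the 3 peroxisomal members had a median of -0.38, with none of them 1.5-fold or more lower. The 20 members of mitochondrial import and oxidation had a median of -0.74, with 13 of them 1.5-fold or more lower (5.02% of all genes). Of the pathway genes outside the members, given below, 12 listed as mitochondrial had a median of -0.05 and 16 measured peroxisomal genes -0.13. Of the 12, 8 were below 0 and 4 above: Acaca (0.53), Acot9 (0.41), Cpt1c (0.18) and Acacb (0.12). Acaca, Acacb and Cpt1c are not enzymes of mitochondrial oxidation, so this list cannot show whether the gap extends beyond the members.

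With loss of Txnip on the ob/ob background the uncoupling proteins were higher, where most oxidation enzymes were lower. Ucp3, the mitochondrial carrier typical of skeletal muscle (chromosome 7, 100359864 to 100359923, mm8), had 2.75 in ob/ob TBP-2-/-, 1.81 in ob/ob, 7.05 in TBP-2-/- and 5.07 in WT muscle. Both ob/ob arrays lay below both lean arrays. It was 2.57-fold lower in ob/ob TBP-2-/- than in TBP-2-/- (-1.36 ± 0.20) and 2.80-fold lower in ob/ob than in WT muscle (-1.49 ± 0.20), the 1 member past 2-fold there (1.74% of all genes were 2-fold or more lower and 1.88% higher). With loss of Txnip it was higher, by 0.60 ± 0.20 on the ob/ob (0.09 with spike-in scaling) and by 0.48 ± 0.20 on the lean background. Ucp2, its relative in many tissues, had 0.338 in ob/ob TBP-2-/- and 0.194 in ob/ob, and 0.415 in TBP-2-/- and 0.223 in WT muscle. It was 1.74-fold higher without Txnip on the ob/ob (0.80 ± 0.22, and 0.29 with spike-in scaling) and 1.86-fold higher on the lean background (0.89 ± 0.21). Ucp2 is abundant in macrophages, and all 4 macrophage markers were higher without Txnip as well, with a median of 0.29 on the ob/ob (a size that the spike-in shift of -0.51 turns) and of 0.61 on the lean background. Their part in the Ucp2 difference was not tested.

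A motif search set these profiles beside the upstream sequence. A direct repeat of 2 half-sites AGGTCA with 1 base (N) between them was searched on both strands in the 250 bases before each start site of the RefSeq table (GRCm38.p6), with up to 2 mismatches. Of the 36 members 31 had a window in the table, with 36 windows in all. The repeat was found in 4 of these windows and in 3.24% of all 32851 windows. The 4 were those of Cd36, Echs1, Etfa and Ucp3, whose profiles differ from each other. The extended half-site TCAAGGTCA, bound by estrogen-related receptors and containing 1 half-site of the repeat, was matched exactly in 1 member window, that of Acsl6, and in 0.387% of all windows. A match describes letters and not a bound site. The upstream sequences of Ucp3 and Echs1, a pair of the members that hold the repeat, are shown with the repeat in capitals. That of Ucp3 is chr7:100472741-100472990 on the plus strand, and that of Echs1 is chr7:140116422-140116671 on the minus strand, both read towards the gene.
Ucp3: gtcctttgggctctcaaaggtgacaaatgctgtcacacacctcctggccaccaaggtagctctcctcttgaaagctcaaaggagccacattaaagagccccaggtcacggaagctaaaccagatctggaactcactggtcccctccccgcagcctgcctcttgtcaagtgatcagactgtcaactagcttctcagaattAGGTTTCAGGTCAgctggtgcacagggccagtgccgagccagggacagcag
Echs1: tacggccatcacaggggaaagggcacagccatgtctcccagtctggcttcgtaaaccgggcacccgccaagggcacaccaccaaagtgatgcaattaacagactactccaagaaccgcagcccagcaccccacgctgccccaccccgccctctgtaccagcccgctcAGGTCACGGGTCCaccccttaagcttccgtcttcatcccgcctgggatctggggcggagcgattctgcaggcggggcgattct

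The limma fit with additive terms for Txnip loss and for the ob/ob genotype called no member at an adjusted p under 0.05. It called 0.0992% of 16129 genes for the Txnip term and 0.223% for the ob/ob term. At an unadjusted p under 0.05 it held 5 members for the Txnip term (9.81% of all genes) and 5 for the ob/ob term (13.7%). For the Txnip term these were Ehhadh (log2 difference -0.97 ± 0.18, limma adjusted p = 0.252), Ucp2 (0.85 ± 0.16, limma adjusted p = 0.261), Echs1 (-0.82 ± 0.16, limma adjusted p = 0.272), Ucp3 and Cpt1a. For the ob/ob term Ucp3 was at -1.42 ± 0.16 (limma adjusted p = 0.0826), followed by Acsl3, Eci1, Mlycd and Hadhb. The error of this fit is the departure from additivity, which for members such as Fabp3 and Acadl is the pattern itself: their SE was 0.39 and 0.31. With normexp background correction limma called 4 members for the Txnip term, among 594 of 16129 genes, and 10 for the ob/ob term, among 1076. With the filter on all 4 arrays it called 1 member for the ob/ob term, among 127 of 14920 genes, and none for the Txnip term, among 39.

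Other genes of the pathway were taken as a list for comparison. The list has 36 further genes grouped under uptake, mitochondria and peroxisomes, among them Fabp4, which is also an adipocyte marker. In ob/ob TBP-2-/- minus ob/ob 32 of them were measured, with a median of -0.17. There 4 were 1.5-fold or more lower (3.64% of all genes) and 2 higher (6.5%). In ob/ob TBP-2-/- minus TBP-2-/- 5 of 32 were 1.5-fold or more lower (5.02% of all genes) and none higher (6.22%), with a median of -0.12. Of the list, 6 genes were 2-fold or more different in some comparison. Bdh1, the ketone body dehydrogenase, had 0.490 in ob/ob TBP-2-/- and 2.04 in ob/ob, and 0.674 in TBP-2-/- and 1.16 in WT muscle, 4.16-fold lower on the ob/ob background (-2.06). Acss1, which activates acetate in mitochondria, had 8.33 in ob/ob TBP-2-/- and between 18.6 and 20.0 on the other arrays. Acaca, which makes malonyl-CoA, was higher without Txnip, at 0.926 in ob/ob TBP-2-/- against 0.331 in ob/ob muscle and at 0.641 in TBP-2-/- against 0.319 in WT muscle. Pex11a, a peroxisome division factor, was 2.02-fold lower in ob/ob TBP-2-/- than in TBP-2-/- muscle (-1.02). Slc27a3 stood apart on the TBP-2-/- array, with a difference of 1.45 from WT, and was at -1.39 in ob/ob TBP-2-/- minus TBP-2-/-. Acox2, an oxidase of branched chains measured on both ob/ob arrays, was at -1.22 in ob/ob TBP-2-/- minus ob/ob. Its relative signals there were low, at 0.042 and 0.097.

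Lists of fibre type and of the respiratory chain are given beside the members. The 12 respiratory chain genes had medians of -0.19 in ob/ob TBP-2-/- minus ob/ob, -0.27 in TBP-2-/- minus WT, -0.30 in ob/ob TBP-2-/- minus TBP-2-/- and -0.27 in ob/ob minus WT. With percentile scaling all 12 were lower in each comparison, also in TBP-2-/- against WT, where the members had a median of 0.13; spike-in scaling adds 0.64 in ob/ob minus WT and 0.25 in TBP-2-/- minus WT, which turns or nearly cancels those values. The 7 slow fibre markers had a summed relative signal of 1386 in ob/ob TBP-2-/-, 1614 in ob/ob, 2253 in TBP-2-/- and 2476 in WT muscle. Their median was -1.36 in ob/ob TBP-2-/- minus TBP-2-/-, where the members were at -0.56, and -0.71 in ob/ob minus WT, where the members were at -0.10. With loss of Txnip it was -0.52 on the ob/ob background (members -0.41) and -0.05 on the lean background (members 0.13). Slow fibres are known to be rich in oxidation enzymes. The 6 fast fibre markers had medians of 0.19 in ob/ob TBP-2-/- minus ob/ob, -0.15 in TBP-2-/- minus WT, 0.19 in ob/ob TBP-2-/- minus TBP-2-/- and -0.16 in ob/ob minus WT. The 7 adipocyte markers had medians of 1.30, 0.80, 0.75 and 0.46 in these comparisons. Their genes disagreed with each other in the comparisons of the ob/ob genotype, where Cfd was at -3.12 in ob/ob TBP-2-/- minus TBP-2-/- and at -3.39 in ob/ob minus WT, and the summed signal given above was lower, not higher, on the ob/ob arrays.

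**Figure D4:**
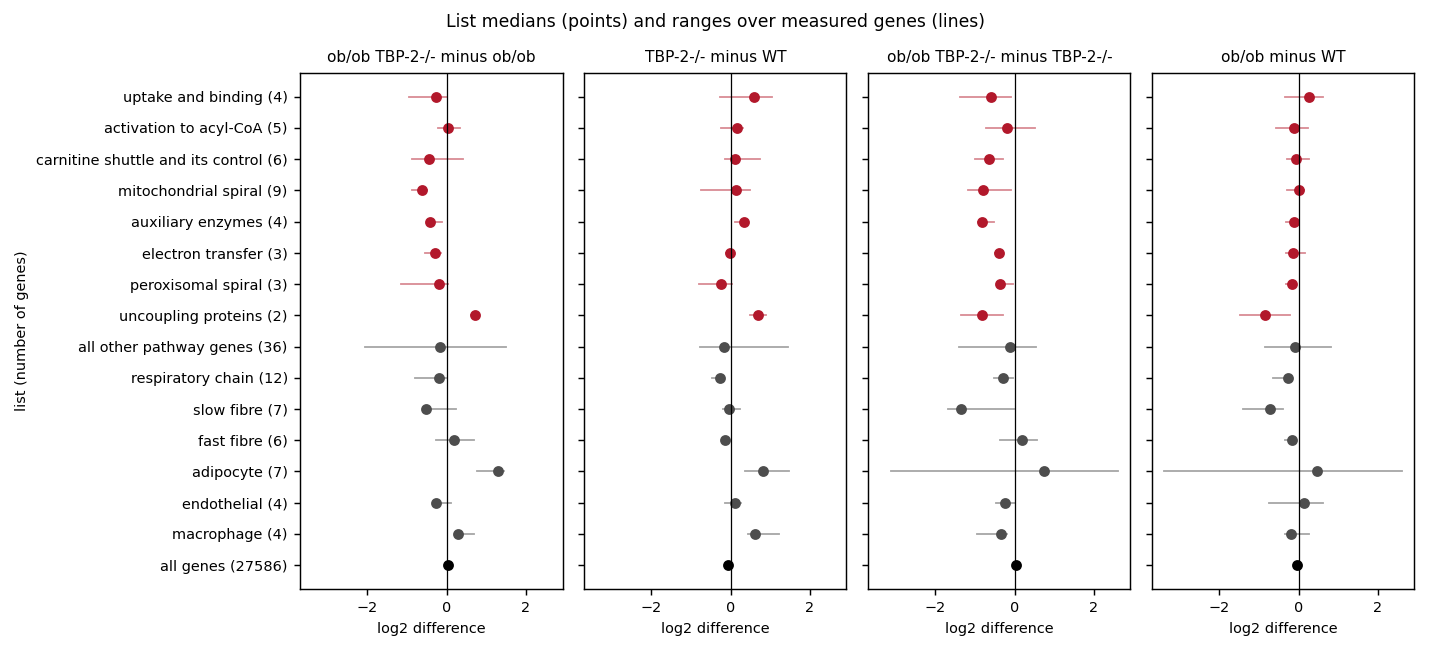
Median log2 difference (points) and range over measured genes (lines) of each step of the pathway (red), of the other pathway genes and marker lists (grey) and of all genes (black, median only) in the 4 comparisons. In ob/ob TBP-2-/- minus ob/ob the mitochondrial spiral lies at -0.63, the slow fibre list at -0.52 and the respiratory chain at -0.19. The slow fibre list is also low in both comparisons of the ob/ob genotype.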

How the data were processed

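Total RNA of skeletal muscle was labelled with Cy3 and hybridised to 1-colour arrays, 1 for each of 4 genotypes, on 1 slide in 1 scan. The authors deposited scanner files made with Agilent Feature Extraction 9.5.3.1, per the submitters' processing notes, and used here is the processed signal intensity of each spot, background-subtracted by that software. The deposited value table holds log2 values that follow the scanner signals scaled to the 75th percentile and centred on each probe's median (slope 1.00 on all arrays); how the authors made it is not stated in the sources.

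Outlier spots (59 to 110 an array) were left out, spots of a probe averaged, and log2 signals set relative to each array's 75th percentile over 41174 probes. Probes were named by accession (24375), symbol (6301) or older symbol (2426) through RefSeq tables, or as in the file (8072). The brightest probe stands for a gene. A pairwise difference was taken where both arrays were well above background. The additive model of Txnip and ob/ob genotype used limma 3.58.1 in R 4.3.3 on genes well above background on 2 or more arrays, with 1 residual degree of freedom, Benjamini-Hochberg adjustment and a threshold of 0.05. It was tested on simulated data that were additive, so the test does not cover genes whose Txnip difference changes with the background. Probe coordinates are those of mm8 in the files and promoters those of RefSeq, GRCm38.p6, and none was converted.

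The members and lists were chosen with earlier results of these data known. By rule, members 2-fold or more different in a comparison, or brightest or dimmest of their step (19 of 36), are given array by array, as are other pathway genes at 2-fold. Other members shown array by array, among them Cd36, Slc27a1, Slc25a20, Acadm, Hadha and Echs1, were chosen after their values were seen. Alternatives were quantile normalization, scaling to 7 spike-in probes, normexp correction (offset 50), no filter, a filter on all 4 arrays, the median of a gene's probes, the deposited table and a 2-fold threshold. The number of arrays limits the precision.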

Additional observations from a re-analysis of the deposited data

Results flagged for a closer look

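For 5 members, and for the median of all 36, the difference with loss of Txnip ran downward on the ob/ob background and upward on the lean background, and the gap between them was 2-fold or more for each of the 5. The difference of the TBP-2 differences, ob/ob background minus lean background, was -1.55 for Fabp3, -1.43 for Slc27a1, -1.12 for Slc25a20, -1.17 for Acadl and -1.07 for Hadha on the log2 scale. It was -0.48 for the members' median. Past 2-fold in this direction were 1.95% of all genes. With 1 array for each genotype the difference was not tested.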

How the results depend on the processing

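Of 38 member differences of 1.5-fold or more, all 38 kept their direction under quantile normalization, spike-in scaling, normexp correction, the median of a gene's probes and the deposited table, and between 32 (normexp) and 38 (quantile, deposited table) stayed past 1.5-fold. Spike-in scaling moved the members' medians to -0.92 in ob/ob TBP-2-/- minus ob/ob, 0.37 in TBP-2-/- minus WT, 0.54 in ob/ob minus WT, and -1.24 for the difference of the TBP-2 differences, by its constant shift of all genes. Under it the split of all genes past 1.5-fold, higher to lower, was 2084 to 202 in TBP-2-/- minus WT (901 to 500 with percentile scaling), 222 to 5339 in ob/ob TBP-2-/- minus ob/ob (1006 to 563), 652 to 1186 in ob/ob TBP-2-/- minus TBP-2-/- (972 to 785) and 7766 to 151 in ob/ob minus WT (937 to 1030). The filter does not alter a single gene's difference.

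Members 1.5-fold higher in TBP-2-/- minus WT numbered 9 with spike-in scaling (2084 of 15202 genes) and 1 at 2-fold (1.74% of all genes). Lower ones numbered 0 under both (202 genes, and 0.881%). In ob/ob TBP-2-/- minus ob/ob the lower members numbered 26 with spike-in scaling (5339 of 15471 genes) and 1 at 2-fold (0.821% of all genes). The higher ones there numbered 0 under spike-in scaling (222 genes), normexp (405 genes) and 2-fold (1.86%). In ob/ob TBP-2-/- minus TBP-2-/- the lower members numbered 6 at 2-fold (1.59% of all genes). In ob/ob minus WT the higher members numbered 16 with spike-in scaling (7766 of 15073 genes, a larger share than of the members). They numbered 0 under normexp (331 genes), the median of probes (1072 genes) and 2-fold (1.88% of all genes). The lower ones numbered 2 with the median of probes (1069 genes).

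Genes called by limma for the Txnip term (16) numbered 0 with quantile normalization (1602 at an unadjusted p under 0.05), 102 with spike-in scaling, 594 with normexp, 6 with no filter and 39 with the filter on all arrays. For the ob/ob term (36) they numbered 0 with quantile normalization (2210 unadjusted), 236 with spike-in scaling, 1076 with normexp, 0 with no filter (2079 unadjusted), 127 with the filter on all arrays and 21 with the median of probes. The cause was not tested. No paired analysis was possible because each genotype has 1 array. For the same reason no replicate could be left out, and a slide block was not run because there was 1 slide.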
